A study of Mus musculus with 6 samples.

Results

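Integrins are surface receptors made of an alpha and a beta chain that, together with selectin ligands and CD44, hold lymphocytes to vessel walls, to other cells and to matrix. The genes described here are 9 of the 25655 listed genes, chosen by name: the alpha chains Itga4, Itgal, Itgae and Itgav, the beta chains Itgb1, Itgb2 and Itgb7, Selplg, which encodes the selectin ligand PSGL-1, and Cd44, which encodes a hyaluronan receptor. All 9 were found by symbol. Of these 8 passed the filter on low values, at least 1 CPM (a gene's reads scaled to a common library total) in at least 3 of the 6 libraries, and Itgae did not. The members and the gene lists below were chosen with earlier results of these data known. The shares called in them, set beside all tested genes, are therefore descriptions and not tests of an excess.

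CD8 T cells from spleens of female C57BL/6 mice were compared in 2 groups of 3 biological replicates, Utx KO and WT. Utx, the product of Kdm6a, removes methyl groups from lysine 27 of histone H3. How, where and in which part Utx was deleted is not said in the labels, nor whether each replicate was another animal, so the p-values cover only the spread among these libraries. In both groups naive cells, low in CD44, received antibodies to TCR-beta and CD28 with IL-2 over 2 days and then IL-2 over 3 days, after which 3' end libraries of messenger RNA were made.

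An integrin chain reaches the surface with its partner. Alpha4 pairs with beta1 or beta7 and binds VCAM-1 and fibronectin or the gut vessel ligand MAdCAM-1. AlphaL and beta2 form LFA-1, which binds ICAM-1 and holds a killer T cell to its target. AlphaE pairs with beta7 to form the E-cadherin receptor of which CD103 is the alpha chain, and alphaV pairs with several beta chains that bind matrix and latent TGF-beta. PSGL-1 binds selectins only after glycosyltransferases have built sugar chains on it.

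Libraries held 1619085 to 2517655 reads in Utx KO and 1827703 to 2529113 reads in WT. A count of 0 therefore allows up to 1.19 to 1.85 CPM in Utx KO and 1.19 to 1.64 CPM in WT (3 reads, counting error only). The targeted gene Kdm6a was at 32.9 ± 5.93 CPM in Utx KO and 49.1 ± 4.67 CPM in WT (SD, n = 3; limma adjusted p = 0.0123; log2 fold change −0.57), and since the deleted part is not stated, its 3' tag does not settle the labels. That call held in 13 of 18 alternative settings (adjusted p 0.00560 to 0.0985), and not with DESeq2 (0.0673 on the genes tested and 0.0985 on all genes) or without Utx KO replicate 1 (0.0554) or WT replicate 2 (0.0528) or 3 (0.0708). The 10 CD8 T cell markers summed to 2964 to 3039 CPM in Utx KO and 2809 to 2934 CPM in WT. Of these Cd5, Cd3d, Cd3e and Cd8b1 rose and Thy1 fell (limma). The call of Cd3e was lost without WT replicate 1 (adjusted p = 0.0750) and with DESeq2 on all genes with a read (0.0514). That of Cd8b1 was lost with DESeq2 on the genes tested (0.122) and on all genes with a read (0.130), and in limma without replicate 1 or 2 of Utx KO (0.0791 and 0.0753) or of WT (0.109 and 0.149). Cd4, the B cell genes Cd79a and Ms4a1, the NK receptor gene Ncr1 and the myeloid genes Lyz2, Adgre1 and Itgam had no read in any library. Summed levels were 11.1 to 13.5 CPM in Utx KO and 11.5 to 17.5 CPM in WT for 4 CD4 T cell markers, and 0.571 to 1.85 CPM in Utx KO and 2.76 to 5.47 CPM in WT for 8 B cell markers, 5 of them at 0 throughout. The 14 myeloid markers, 7 at 0 throughout, summed to 80.5 to 92.0 CPM in Utx KO and 72.8 to 89.8 CPM in WT. Among these 14, 5 had more than 3 reads over all libraries, and 3 were tested. All 3 had a positive log2 fold change (median 0.49), and none passed, against 10.8% of all tested genes (limma). The 6 NK markers, 3 at 0 throughout, summed to 175 to 199 CPM in Utx KO and 257 to 278 CPM in WT, nearly all of it Eomes, which CD8 T cells also express and which fell (limma adjusted p = 2.33e-05). The 8 platelet markers, 5 at 0 throughout, summed to 47.4 to 53.1 CPM in Utx KO and 62.7 to 64.6 CPM in WT, mostly the integrin chain Itgb3. The 5 erythroid markers summed to 1.19 to 3.09 CPM in Utx KO and 0 CPM in WT, and the 8 stromal markers to at most 3.71 CPM in Utx KO and 2.76 CPM in WT. The part of other cell types in the results was not tested.

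RNA for most of these adhesion genes was lower in Utx KO cells. Itga4 fell to 0.218 of its WT mean, both chains of LFA-1 fell to about 0.7 of WT (0.704 for Itgal and 0.712 for Itgb2), Cd44 to 0.733 and Itgb1 to 0.815 of WT, and Itgb7 rose to 1.25 of WT. Of the 8 tested members 5 fell and 1 rose, against 5.51% of all 10590 tested genes lower and 5.28% higher in Utx KO (limma, adjusted p under 0.05). The groups did not overlap in any of the 8 tested members, nor in 26.5% of all tested genes. The median log2 fold change was −0.45 over the 8 members and 0.0067 over all tested genes. Since the members were chosen with earlier results known, these comparisons with all genes only describe them. In bulk RNA, fewer cells of a type and less RNA per cell cannot be told apart.

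The promoters of Itga4, Itgb1 and Itgb7 are shown because these partners moved by different amounts and in different directions. The sequences are RefSeq windows of 300 bases around the gene start (GRCm38.p6), 5′ to 3′, and 5 of the 9 members had an entry (Itga4, Itgb1, Itgb7, Itgav and Cd44). Capitals mark matches on either strand to TGTGGT (RUNX core), CCGGAA (ETS core), TGANTCA (AP-1) or GGGCGG (GC box).
Itga4, chr2:79255176-79255475, plus strand: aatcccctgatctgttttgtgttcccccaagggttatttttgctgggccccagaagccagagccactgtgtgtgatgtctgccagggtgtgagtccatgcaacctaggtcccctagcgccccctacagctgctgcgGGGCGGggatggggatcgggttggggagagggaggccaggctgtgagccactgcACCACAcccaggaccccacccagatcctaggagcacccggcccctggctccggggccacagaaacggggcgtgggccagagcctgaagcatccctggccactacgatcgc
Itgb1, chr8:128685404-128685703, plus strand: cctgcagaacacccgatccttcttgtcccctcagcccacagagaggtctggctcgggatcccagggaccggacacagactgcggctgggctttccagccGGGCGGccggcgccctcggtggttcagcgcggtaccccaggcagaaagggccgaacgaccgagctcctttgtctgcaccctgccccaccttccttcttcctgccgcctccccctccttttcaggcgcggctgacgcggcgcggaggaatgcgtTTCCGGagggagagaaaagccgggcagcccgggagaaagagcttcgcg
Itgb7, chr15:102231886-102232185, minus strand: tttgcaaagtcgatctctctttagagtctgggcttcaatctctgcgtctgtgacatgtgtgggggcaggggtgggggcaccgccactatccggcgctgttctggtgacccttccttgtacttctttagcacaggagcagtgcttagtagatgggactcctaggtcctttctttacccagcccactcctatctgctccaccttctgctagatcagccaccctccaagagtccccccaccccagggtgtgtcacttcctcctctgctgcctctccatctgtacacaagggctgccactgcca
Positions are counted from the gene start as 0. The Itga4 window held a RUNX core on the opposite strand at −60 and a GC box at −114. A RUNX core occurred in 1 of the 5 member promoters and in 16.8% of all 32851 promoters of that length. The Itgb1 window held a GC box at −151 and an ETS core on the opposite strand at 2, a motif found in 14.9% of all promoters. The Itgb7 window held none of the 4 motifs, which says only that these letters are not in this window. A GC box occurred in 4 of the 5 member promoters and in 35.7% of all, and AP-1 letters occurred in 7.81% of all promoters. The matches describe sequence and are not binding sites.

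**Figure D1:**
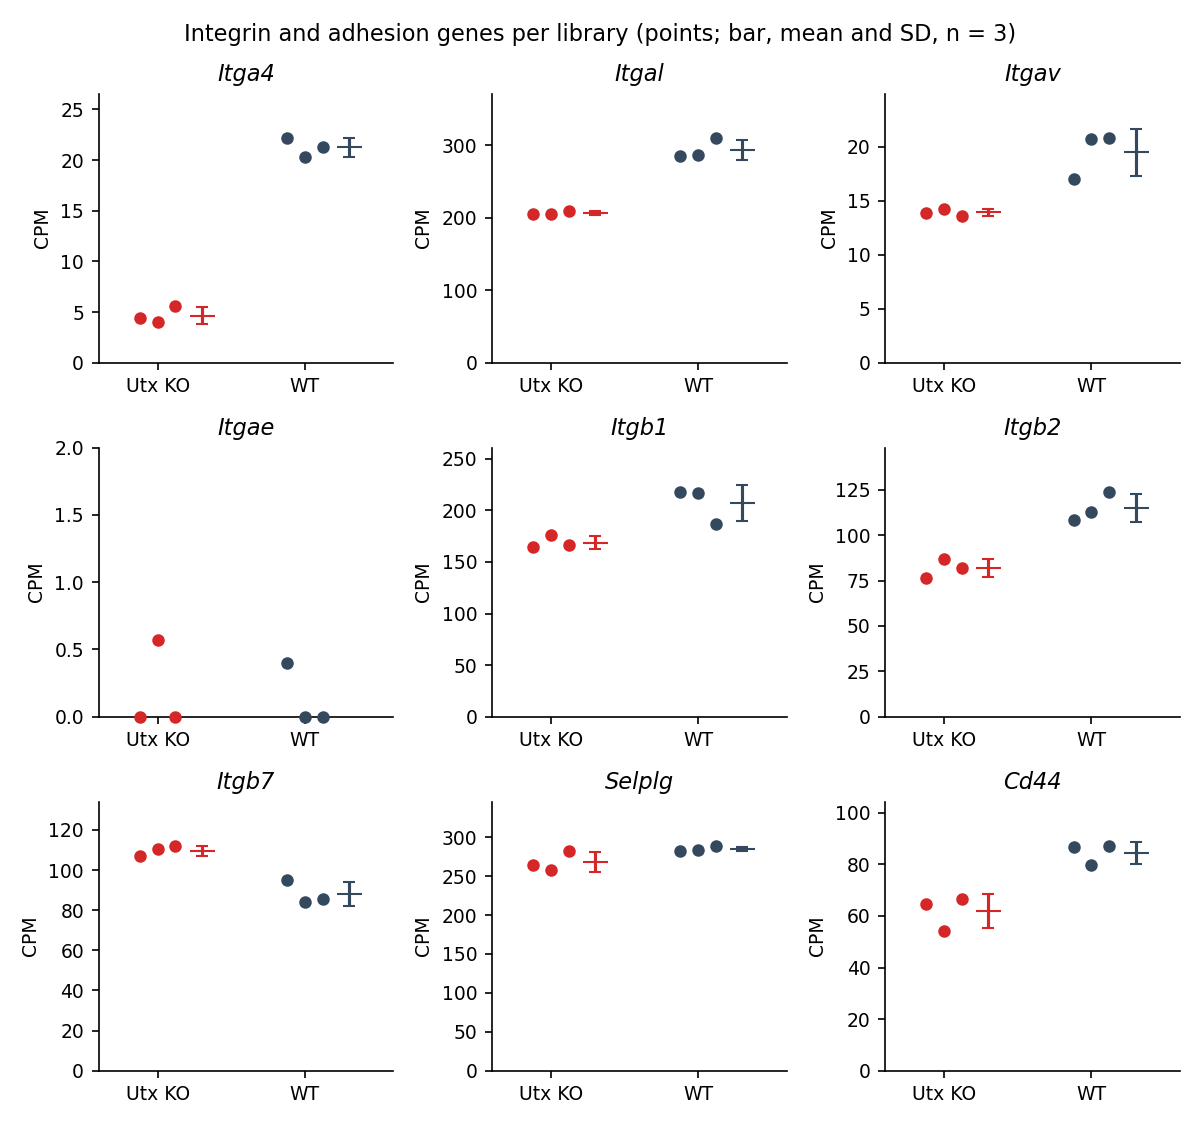
CPM of the 9 integrin and adhesion genes in each library (y axis, linear, from 0), with Utx KO left of WT. Points are libraries, and bars give the mean and SD of 3 libraries (not drawn for Itgae, which had 1 read in each group). Itga4 lay between 4.0 and 5.56 CPM in Utx KO and between 20.3 and 22.1 CPM in WT, and Itgb7 was higher in each Utx KO library than in each WT library.

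Itga4 (ENSMUSG00000027009, chromosome 2, 79255426 to 79333123, plus strand, GRCm38) encodes alpha4, also called CD49d. In replicate order its level was 4.37, 4.0 and 5.56 CPM in Utx KO and 22.1, 20.3 and 21.3 CPM in WT. These levels rest on 11, 7 and 9 reads in Utx KO and 56, 44 and 39 reads in WT, and even the highest Utx KO library was far below the lowest WT library. The log2 fold change was −1.99, with SE 0.25 and limma adjusted p = 4.3e-06. It is taken on log2(CPM + 1), which makes the change of a low gene look smaller. The fall held in all 18 alternative settings tried, which vary the pseudocount, filter, scaling and test or leave out 1 library (adjusted p 5.33e-07 to 9.72e-05). Itga4 exons overlap 1124 bases of Cerkl on the opposite strand, and the overlap ends 467 bases before the 3' end of Itga4. The use of strand in counting is not stated, so reads of the pair cannot be told apart. Cerkl itself was listed at 0.397, 1.14 and 0.618 CPM in Utx KO and at 2.37, 1.84 and 2.74 CPM in WT.

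Itgb1 (chromosome 8, 128685654 to 128733200, plus strand) encodes beta1, which many alpha chains share, and was at 164, 176 and 166 CPM in Utx KO and 217, 217 and 187 CPM in WT. Each Utx KO library lay below each WT library, with WT replicate 3 closest to the Utx KO values. Itgb1 fell by 0.29 on the log2 scale (SE 0.08, limma adjusted p = 0.0157). The call was lost without WT replicate 1 (adjusted p = 0.0966) or WT replicate 2 (adjusted p = 0.104) and with DESeq2 on all genes with a read (0.0574), but not with DESeq2 on the genes tested here; the lowest of 18 alternatives was 0.00609.

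Itgb7 (chromosome 15, 102215995 to 102231944, minus strand) encodes beta7, the partner of alpha4 in gut homing and of alphaE, and was at 107, 110.2 and 112 CPM in Utx KO and 94.9, 83.9 and 85.4 CPM in WT. It was the 1 tested member that was higher in Utx KO, with no overlap between the groups (log2 fold change 0.32, SE 0.09, limma adjusted p = 0.0299). The call was lost with DESeq2 on the genes tested (0.193) and on all genes with a read (0.243). It was also lost, in limma, without Utx KO replicate 2 (adjusted p = 0.0844) or 3 (0.0838) or WT replicate 2 (0.135) or 3 (0.0967), and the lowest of 18 alternatives was 0.0240.

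The chains of LFA-1 both fell. Itgal (chromosome 7, 127296260 to 127335138, plus strand), which encodes alphaL, was at 205, 205 and 210.0 CPM in Utx KO and 285, 287 and 309.7 CPM in WT. Itgb2 (chromosome 10, 77530252 to 77565708, plus strand), which encodes beta2 (CD18), was at 76.7, 86.8 and 82.1 CPM in Utx KO and 108, 113 and 124 CPM in WT. For both genes all Utx KO libraries were well below all WT libraries. The log2 fold change was −0.50 for Itgal (SE 0.07, limma adjusted p = 9.84e-06) and −0.48 for Itgb2 (SE 0.10, limma adjusted p = 0.00118). Both held in all 18 alternatives, with adjusted p 8.14e-07 to 0.000220 for Itgal and 0.000749 to 0.0137 for Itgb2.

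Itgav (chromosome 2, 83724397 to 83806916, plus strand), which encodes alphaV, was at 13.9, 14.3 and 13.6 CPM in Utx KO and 17.00, 20.7 and 20.8 CPM in WT. The groups did not overlap, but the difference did not pass the test (log2 fold change −0.45, 95% interval −0.87 to −0.03, limma adjusted p = 0.180) or pass it in any of the 18 alternatives (adjusted p 0.156 to 0.626).

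Itgae (chromosome 11, 73090583 to 73147446, plus strand), which encodes the alphaE chain, had 1 read in Utx KO replicate 2 and 1 read in WT replicate 1, and none in the other 4 libraries. Both groups were under the level that 3 reads set in each library, so a difference was not detectable at this depth and no fold is given. Its partner Itgb7 was well detected in the same libraries.

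Selplg (chromosome 5, 113818536 to 113832644, minus strand) was at 265, 258 and 282 CPM in Utx KO and 283, 284 and 288 CPM in WT. The highest Utx KO library lay just under the lowest WT library. The difference did not pass the test (log2 fold change −0.09, 95% interval −0.22 to 0.05, limma adjusted p = 0.469).

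Cd44 (chromosome 2, 102811141 to 102901665, minus strand) was at 64.7, 54.3 and 66.7 CPM in Utx KO and 86.6, 79.7 and 86.99 CPM in WT, without overlap. The naive cells at the start had been chosen for low CD44 on the surface in both groups. Cd44 fell by 0.45 on the log2 scale (SE 0.11, limma adjusted p = 0.00865). The call was lost with DESeq2 on the genes tested (0.0529) and on all genes with a read (0.0769), and without Utx KO replicate 2 (limma adjusted p = 0.0635); the lowest of 18 alternatives was 0.00713.

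The members spanned a wide range of levels, and their order differed between the groups. A 3' end library yields about 1 tag per transcript, so CPM is not scaled by length here, although priming and mapping can differ between genes. In Utx KO the order of mean CPM was Selplg (268 ± 12.5), Itgal (207 ± 2.77), Itgb1 (169 ± 6.34), Itgb7 (109.6 ± 2.53), Itgb2 (81.9 ± 5.08), Cd44 (61.9 ± 6.69), Itgav (13.9 ± 0.346), Itga4 (4.64 ± 0.815) and Itgae (SD, n = 3). No neighbours in that order overlapped in their libraries. In WT the order was Itgal (294 ± 13.8), Selplg (285 ± 2.98), Itgb1 (207 ± 17.7), Itgb2 (115 ± 7.86), Itgb7 (88.0 ± 5.98), Cd44 (84.4 ± 4.09), Itga4 (21.3 ± 0.936), Itgav (19.5 ± 2.17) and Itgae (SD, n = 3). There Itgal and Selplg overlapped, as did Itgb7 and Cd44, and Itga4 and Itgav. Itgb2 was below Itgb7 in each Utx KO library and above it in each WT library.

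The alpha to beta ratio of CPM within a library shows how partners moved relative to each other, and library scaling cancels in it. The ratio of Itga4 to Itgb1 was 0.0266, 0.0227 and 0.0335 in Utx KO and 0.102, 0.0934 and 0.114 in WT. Put the other way, there were 37.1 ± 7.06 Itgb1 reads for each Itga4 read in Utx KO and 9.76 ± 0.982 in WT (SD, n = 3). The ratio of Itga4 to Itgb7 was 0.0409, 0.0363 and 0.0497 in Utx KO and 0.233, 0.242 and 0.250 in WT, with 24.0 ± 3.75 Itgb7 reads for each Itga4 read in Utx KO and 4.14 ± 0.143 in WT (SD, n = 3). Neither ratio overlapped between the groups. On log2 ratios of CPM + 1, the difference, Utx KO minus WT, was −1.70 (SE 0.16) for Itga4 to Itgb1 and −2.30 (SE 0.11) for Itga4 to Itgb7. Each had p = 0.1 in a two-sided exact permutation test, the smallest p that 3 against 3 libraries allow. With the added 1, library scaling does not fully cancel. With a pseudocount of 0.1 the differences were −1.89 for Itga4 to Itgb1 and −2.50 for Itga4 to Itgb7.

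The pairs without Itga4 overlapped between the groups. The ratio of Itgal to Itgb2 was 2.68, 2.36 and 2.56 in Utx KO and 2.63, 2.54 and 2.50 in WT, with the WT values inside the range of Utx KO. The log2 difference was −0.02 (SE 0.06; exact permutation p = 0.9), and its sign turned without Utx KO replicate 2 (0.0295) or WT replicate 1 (0.000957). The ratio of Itgav to Itgb1 was 0.0847, 0.0812 and 0.0818 in Utx KO and 0.0782, 0.0955 and 0.111 in WT (log2 difference −0.16, SE 0.14; exact permutation p = 0.4). Adjusted over the 4 pairs by the Benjamini-Hochberg method, the exact p was 0.2 for both Itga4 pairs, 0.9 for Itgal to Itgb2 and 0.533 for Itgav to Itgb1. The pair Itgae and Itgb7 has no ratio because Itgae was under its detection limit.

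**Figure D2:**
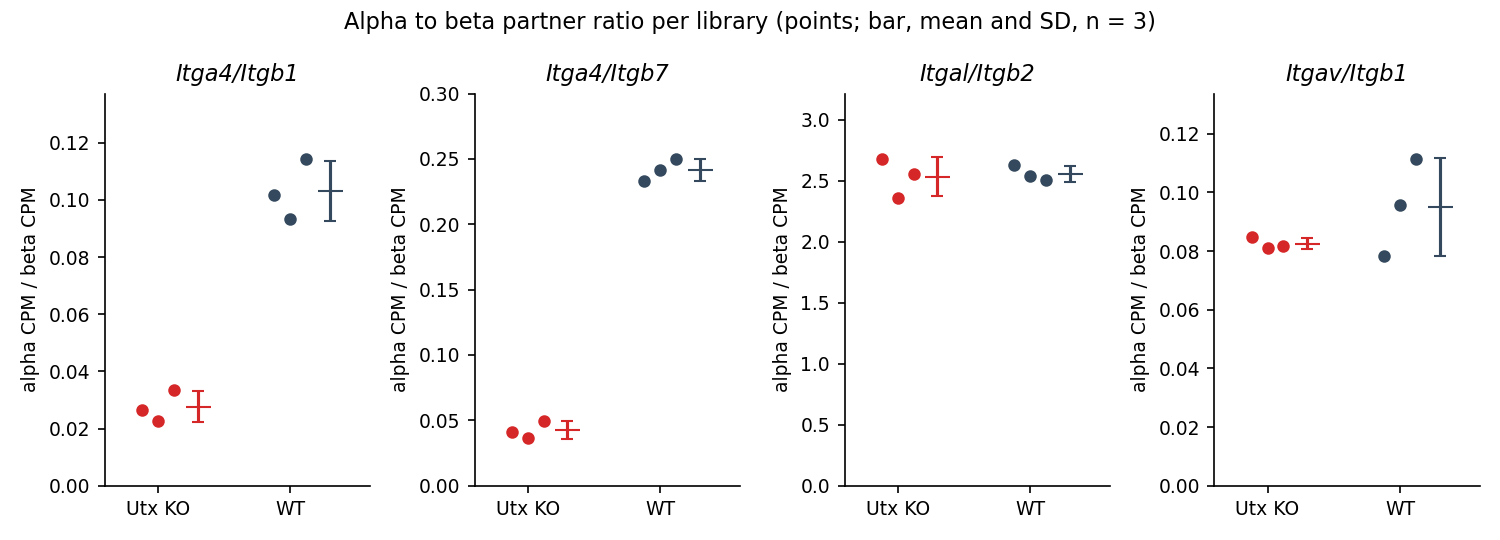
Ratio of alpha chain CPM to beta chain CPM in each library (y axis, linear, from 0) for 4 integrin pairs, with Utx KO left of WT. Points are libraries, and bars give the mean and SD of 3 libraries. The ratios of Itga4 to Itgb1 and to Itgb7 were lower in all 3 Utx KO libraries than in any WT library, whereas Itgal to Itgb2 was 2.53 ± 0.160 in Utx KO and 2.56 ± 0.0657 in WT.

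The other integrin chains were mostly low or undetected. Of 19 chains outside the members 8 were tested, and 2 fell and 1 rose (37.5% called, against 10.8% of all tested genes). Itga2, a collagen receptor chain, was at 1.99, 1.14 and 1.24 CPM in Utx KO and 3.95, 6.45 and 6.02 CPM in WT (log2 fold change −1.39, limma adjusted p = 0.0152). Itga7, a laminin receptor chain whose exons overlap Mettl7b on the opposite strand, was at 6.75, 8.57 and 3.09 CPM in Utx KO and 11.9, 13.4 and 12.04 CPM in WT (log2 fold change −1.0, limma adjusted p = 0.0335). All Utx KO libraries were below all WT libraries for both. Itga2 rests on few reads, 5, 2 and 2 in Utx KO and 10, 14 and 11 in WT. The call of Itga2 was lost with DESeq2 (0.139 on the genes tested and 0.187 on all genes) and without WT replicate 2 (0.0880) or 3 (0.0674), and its lowest adjusted p over 14 alternatives was 0.0132. Itga2, and Itgb4 and Cd81 below, have 14 alternatives and not 18. They were too low to pass the 5 CPM filter or the count filter used before edgeR and limma-voom. The call of Itga7 held in 11 of 18 alternatives (adjusted p 0.0170 to 0.263) and was lost with DESeq2 (0.195 on the genes tested and 0.263 on all genes), with no filter on low values (0.0603) or without Utx KO replicate 3 (0.182) and without WT replicate 1 (0.0715), 2 (0.123) or 3 (0.0772). Itgb4, partner of alpha6 in laminin binding, had 20 reads in Utx KO and 3 in WT, a ratio of pooled CPM of 7.39 (exact 95% counting interval 2.19 to 38.8; log2 fold change 1.64, limma adjusted p = 0.0226). It passed in 7 of 14 alternatives (adjusted p 0.00681 to 0.219), and not with DESeq2 (0.164 on the genes tested and 0.219 on all genes), with a pseudocount of 0.1 (0.0533) or without Utx KO replicate 1 (0.103) or 3 (0.0549) or WT replicate 1 (0.0924) or 3 (0.0845).

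Itga6, Itgb3 and Itga9 were above 5 CPM in a group and did not pass the test. Itga6 passed in 1 of 18 alternatives (adjusted p 0.0193 to 0.433). Itgb3 (0.0725 to 0.423) and Itga9 (0.0835 to 0.783) passed in none. Itga6, the alpha6 chain, was at 41.3, 54.3 and 54.97 CPM in Utx KO and 37.96, 39.2 and 36.7 CPM in WT (log2 fold change 0.38, 95% interval 0.10 to 0.67, limma adjusted p = 0.0843). Itgb3, a partner of alphaV, was at 51.6, 47.4 and 51.9 CPM in Utx KO and 64.4, 61.3 and 63.5 CPM in WT (log2 fold change −0.32, 95% interval −0.56 to −0.08, limma adjusted p = 0.0809). Itga6 lay higher and Itgb3 lower in each Utx KO library, whereas Itga9 overlapped between the groups (6.66 ± 3.76 CPM in Utx KO and 9.69 ± 1.79 CPM in WT; SD, n = 3, limma adjusted p = 0.302). Of the 11 untested chains 6 had no read in any library, among them Itgam, the alpha chain of a myeloid beta2 integrin.

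**Figure D3:**
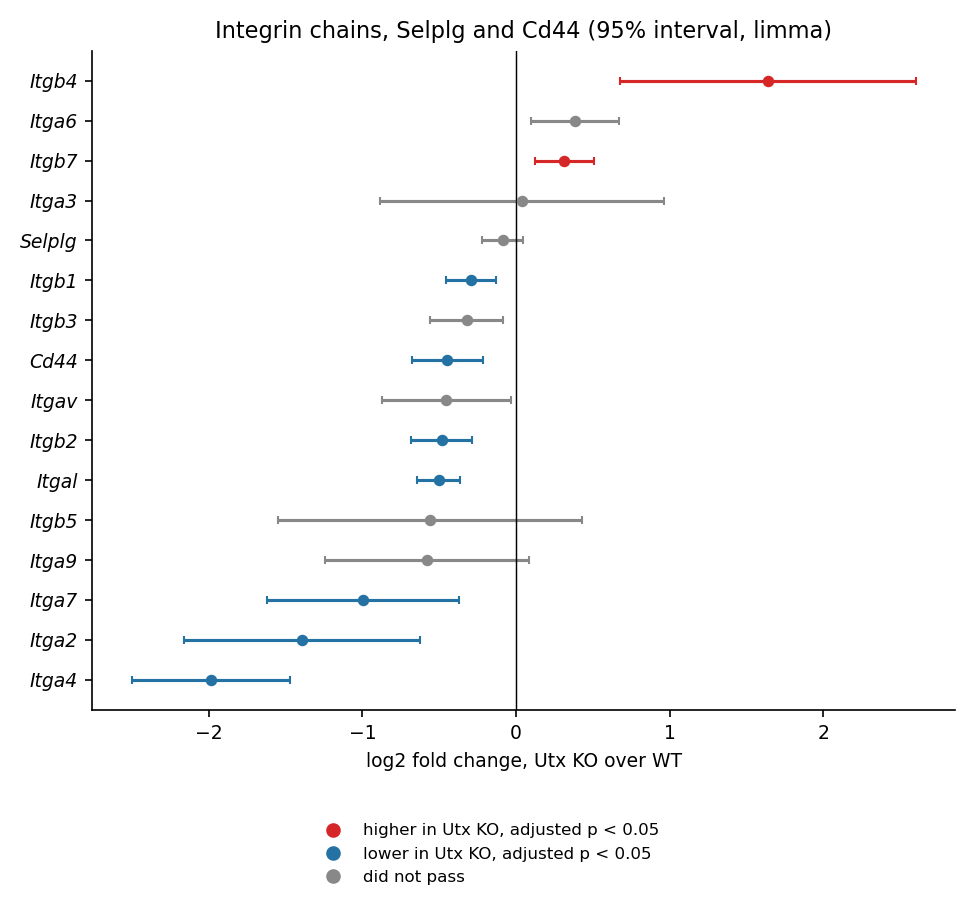
Log2 fold change, Utx KO over WT, on the log2(CPM + 1) scale (x axis) for the 14 tested integrin chains, Selplg and Cd44, with 95% intervals from limma (n = 3 libraries per group). Red and blue mark genes higher and lower in Utx KO at an adjusted p under 0.05, and grey genes did not pass. Itga4 has the lowest value (−1.99), and Itgb7 and Itgb4 are the chains called higher.

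Genes of integrin activation and adaptors, restraining ones included, changed in both directions. Of 34 tested genes in a list of 38 such genes, 6 fell and 2 rose (23.5% called, against 10.8% of all tested genes). Their median log2 fold change was −0.12. Apbb1ip, which encodes RIAM and brings talin to the membrane, was at 152, 162 and 168 CPM in Utx KO and 228, 205 and 212 CPM in WT (log2 fold change −0.42, limma adjusted p = 0.000452). Tln1, which encodes talin, the protein that opens the integrin by binding the beta tail, was at 228, 267 and 290.3 CPM in Utx KO and 325, 329 and 303 CPM in WT (log2 fold change −0.29, limma adjusted p = 0.0132). The call of Tln1 was lost without Utx KO replicate 1 (limma adjusted p = 0.0747) or WT replicate 2 (0.0758), and its lowest over 18 alternatives was 0.00300. The actin-linking adaptor gene Zyx was at 58.6 ± 1.24 CPM in Utx KO and 80.5 ± 2.16 CPM in WT (SD, n = 3, limma adjusted p = 0.00534), a call lost with DESeq2 on all genes with a read (0.0590, lowest of 18 alternatives 0.00389). Vasp, which encodes another actin regulator, was at 308 ± 17.5 CPM in Utx KO and 366 ± 4.39 CPM in WT (SD, n = 3, limma adjusted p = 0.00912), a call lost without Utx KO replicate 2 (0.0700, lowest of 18 alternatives 0.00612). Dok2, which encodes an adaptor that restrains kinase signalling, was at 58.9 ± 6.25 CPM in Utx KO and 91.7 ± 2.61 CPM in WT (SD, n = 3, limma adjusted p = 0.000226). The remaining gene that fell, Rasgrp1, was at 131 ± 16.7 CPM in Utx KO and 161 ± 6.20 CPM in WT (SD, n = 3, limma adjusted p = 0.0339). Its call held in 11 of 18 alternatives (adjusted p 0.0168 to 0.169).

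The 2 genes of that list that rose were Rasgrp2 and Cyth1. Rasgrp2, which encodes the Rap1 exchange factor CalDAG-GEFI, was at 222, 208 and 201 CPM in Utx KO and 126, 152 and 144 CPM in WT (log2 fold change 0.58, limma adjusted p = 2.33e-05). Cyth1, which encodes cytohesin-1, a binder of the beta2 tail, was at 51.2, 47.98 and 38.9 CPM in Utx KO and 23.7, 25.8 and 26.3 CPM in WT (log2 fold change 0.83, limma adjusted p = 0.000490). For both, each Utx KO library was above each WT library. The GTPase gene Rap1b did not pass, at 242 ± 11.7 CPM in Utx KO and 269 ± 13.1 CPM in WT (SD, n = 3, limma adjusted p = 0.191), and neither did Fermt3, which encodes kindlin-3, at 222 ± 13.2 CPM in Utx KO and 232 ± 14.7 CPM in WT (SD, n = 3, limma adjusted p = 0.662).

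Several enzymes that build selectin ligands fell, while their scaffold gene Selplg did not pass the test; enzymes and scaffold were not tested against each other. Of 17 tested genes in a list of 18, 5 fell and 1 rose (35.3% called, against 10.8% of all tested genes; median log2 fold change −0.34). Gcnt1, which starts the branched O-glycans of PSGL-1 and of CD43, was at 0.397, 0 and 2.47 CPM in Utx KO and 5.93, 5.53 and 6.02 CPM in WT (log2 fold change −2.01, limma adjusted p = 0.00291). St3gal6, which encodes a sialyltransferase, was at 6.75, 6.28 and 5.56 CPM in Utx KO and 24.5, 23.04 and 18.6 CPM in WT (log2 fold change −1.67, limma adjusted p = 2.3e-05). All Utx KO libraries of both were below all WT libraries, and both calls held in all 18 alternatives (adjusted p 0.000267 to 0.0481 for Gcnt1 and 3.82e-06 to 0.000566 for St3gal6). Gcnt1 rests on few reads, 1, 0 and 4 in Utx KO and 15, 12 and 11 in WT.

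The fucosyltransferase gene Fut7, needed for selectin binding of T cells, was at 15.5, 15.99 and 19.1 CPM in Utx KO and 25.7, 29.03 and 27.4 CPM in WT (log2 fold change −0.67, limma adjusted p = 0.0167). Its relative Fut4 was at 4.55 ± 1.22 CPM in Utx KO and 10.8 ± 1.27 CPM in WT (SD, n = 3, limma adjusted p = 0.0139), and the sulfotransferase gene Chst2 at 5.73 ± 2.37 CPM in Utx KO and 13.1 ± 3.14 CPM in WT (SD, n = 3, limma adjusted p = 0.0155). With DESeq2 on the genes tested the adjusted p was 0.107 for Fut7, 0.118 for Fut4 and 0.107 for Chst2, and on all genes with a read 0.152, 0.165 and 0.152. In limma, the call of Fut7 was lost without Utx KO replicate 1 (0.0505) or 2 (0.0546) or WT replicate 2 (0.0871) or 3 (0.0520), Fut4 without WT replicate 1 (0.0631) or 2 (0.0690), and Chst2 without Utx KO replicate 3 (0.0736) or WT replicate 1 (0.107). The lowest adjusted p over 18 alternatives was 0.0100 for Fut7, 0.0111 for Fut4 and 0.00526 for Chst2. B3gnt3, which encodes an enzyme that extends O-glycans, was higher, at 12.3 ± 1.98 CPM in Utx KO and 5.86 ± 2.61 CPM in WT (SD, n = 3, limma adjusted p = 0.0270). That call held in 11 of 18 alternatives (adjusted p 0.00784 to 0.215), and not with DESeq2 (0.155 on the genes tested and 0.215 on all genes), with no filter on low values (0.0514) or without Utx KO replicate 2 (0.120) or 3 (0.0680) or WT replicate 1 (0.0703) or 2 (0.151).

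**Figure D4:**
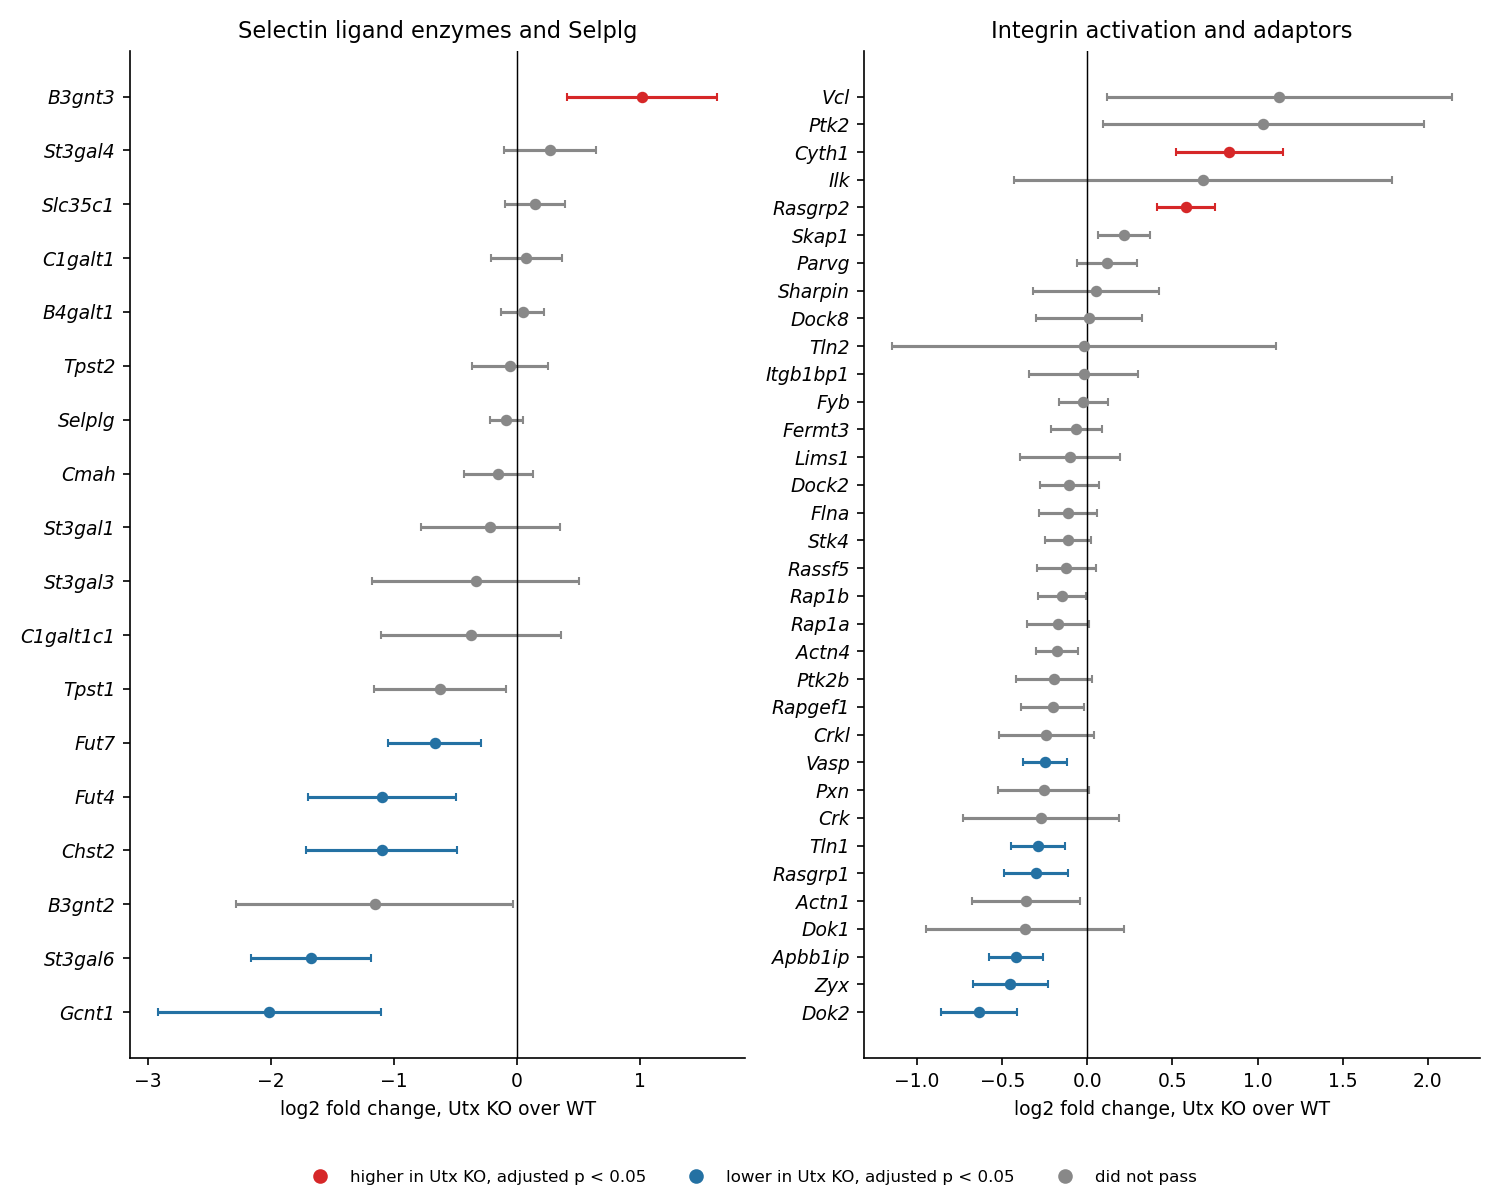
Log2 fold change, Utx KO over WT, on the log2(CPM + 1) scale (x axes, which differ in range), with 95% intervals from limma (n = 3 libraries per group). The left panel shows the tested selectin ligand enzymes with Selplg, and the right panel the tested genes of integrin activation and adaptors. Red and blue mark genes higher and lower in Utx KO at an adjusted p under 0.05. On the left Gcnt1 (−2.01) and St3gal6 (−1.67) lie far below Selplg (−0.09), and on the right the called genes run from Dok2 (−0.64) to Cyth1 (0.83).

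Other adhesion molecules of lymphocytes changed in both directions. Of 22 tested genes in a list of 25, 6 fell and 4 rose (45.5% called, against 10.8% of all tested genes; median log2 fold change −0.07). Jaml, which encodes a junctional adhesion receptor, was at 173 ± 12.2 CPM in Utx KO and 264 ± 13.6 CPM in WT (SD, n = 3, limma adjusted p = 2.92e-06). Slamf7, which encodes a receptor that binds itself on other cells, was at 206 ± 9.47 CPM in Utx KO and 282 ± 18.4 CPM in WT (SD, n = 3, limma adjusted p = 9.51e-05). Cd2, which encodes a receptor for CD48, was at 338 ± 12.9 CPM in Utx KO and 417 ± 24.5 CPM in WT (SD, n = 3, limma adjusted p = 0.00147). Spn, which encodes the sialomucin CD43, was at 292 ± 9.38 CPM in Utx KO and 350.2 ± 14.8 CPM in WT (SD, n = 3, limma adjusted p = 0.00597), a call lost without WT replicate 2 (0.0561, lowest of 18 alternatives 0.00348).

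Cd6 and Cd24a were higher in each Utx KO library. Cd6, which encodes a receptor for ALCAM, was at 36.1, 34.8 and 42.00 CPM in Utx KO and 17.4, 20.7 and 13.7 CPM in WT (log2 fold change 1.10, limma adjusted p = 0.000147). Cd24a, which encodes a small anchored sialoprotein, was at 10.7, 11.99 and 12.4 CPM in Utx KO and 3.16, 1.38 and 0.547 CPM in WT (log2 fold change 2.35, limma adjusted p = 6.47e-05). Its levels rest on 27, 21 and 20 reads in Utx KO and 8, 3 and 1 in WT.

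Of 18 genes in a list of integrin and selectin ligands, Selplg not among them, 8 were tested and 2 fell (25% called, against 10.8% of all tested genes; median log2 fold change −0.10). Cdh1, which encodes E-cadherin, the ligand of alphaE with beta7, was at 3.18, 2.86 and 11.1 CPM in Utx KO and 13.8, 14.7 and 19.7 CPM in WT (log2 fold change −1.54, limma adjusted p = 0.00345). Spp1, which encodes osteopontin, a ligand of alpha4 and alphaV integrins and of CD44, was at 5.16, 1.71 and 3.09 CPM in Utx KO and 9.88, 12.4 and 9.85 CPM in WT (log2 fold change −1.51, limma adjusted p = 0.00296), and its exons overlap Gm42793 on the same strand. Both were lower in each Utx KO library than in each WT library. The LFA-1 ligand genes Icam1, at 23.2 ± 5.23 CPM in Utx KO and 21.8 ± 4.19 CPM in WT, and Icam2, at 15.6 ± 1.96 CPM in Utx KO and 16.6 ± 5.57 CPM in WT, overlapped between the groups (SD, n = 3, limma adjusted p = 0.871 and 0.965).

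Among 12 tested genes of CD44 partners, hyaluronan and sheddases, of 19 listed, 1 fell and 1 rose (16.7% called, against 10.8% of all tested genes; median log2 fold change −0.04). Adam8, which encodes a sheddase of adhesion receptors, was at 26.6, 17.7 and 33.4 CPM in Utx KO and 62.5, 54.4 and 60.2 CPM in WT (log2 fold change −1.20, limma adjusted p = 2.8e-05). Timp2, which encodes a metalloproteinase inhibitor, was at 9.17 ± 3.54 CPM in Utx KO and 3.36 ± 0.919 CPM in WT (SD, n = 3, limma adjusted p = 0.0216). The Timp2 call was lost with DESeq2 (0.112 on the genes tested and 0.156 on all genes) and without Utx KO replicate 2 (0.0633) or 3 (0.142) or WT replicate 2 (0.104), against a lowest adjusted p of 0.0128. Of 12 tested tetraspanins, membrane organisers that bind integrins, 1 rose (8.33% called, against 10.8% of all tested genes; median log2 fold change −0.10). It was Cd81, at 6.70 ± 2.11 CPM in Utx KO and 2.02 ± 1.07 CPM in WT (SD, n = 3, limma adjusted p = 0.0173). Cd81 passed in 8 of 14 alternatives (adjusted p 0.0118 to 0.146), and not with DESeq2 (0.103 on the genes tested and 0.146 on all genes) or without Utx KO replicate 1 (0.0905) or 2 (0.0779) or WT replicate 1 (0.0792) or 3 (0.0514).

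TGF-beta is known to induce Itgae in T cells that settle in tissue. In a list of TGF-beta signalling and tissue residency genes, 3 of 18 tested genes fell and 1 rose (22.2% called, against 10.8% of all tested genes; median log2 fold change −0.08). Klf2, which encodes a transcription factor of quiescent and recirculating T cells, was at 92.1, 98.8 and 96.4 CPM in Utx KO and 43.9, 43.8 and 42.7 CPM in WT (log2 fold change 1.12, limma adjusted p = 7.88e-08). The chemokine receptor gene Cxcr6 was at 24.6, 14.9 and 25.3 CPM in Utx KO and 70.4, 61.7 and 50.9 CPM in WT (log2 fold change −1.48, limma adjusted p = 2.69e-06). Klf2 was higher and Cxcr6 lower in each Utx KO library. Cd101, a marker of tissue-resident cells, was at 1.45 ± 0.575 CPM in Utx KO and 5.83 ± 0.261 CPM in WT (SD, n = 3, limma adjusted p = 0.00767), and the transcription factor gene Runx2 at 25.1 ± 1.57 CPM in Utx KO and 38.9 ± 6.68 CPM in WT (SD, n = 3, limma adjusted p = 0.0157). With DESeq2 the adjusted p of Cd101 was 0.0762 on the genes tested and 0.109 on all genes (lowest of 18 alternatives 0.00612), and that of Runx2 was 0.0860 and 0.122 (lowest 0.00891). The call of Runx2 was also lost without WT replicate 1 (0.110) or 3 (0.0761). Cd101 rests on few reads, 2, 3 and 3 in Utx KO and 15, 12 and 11 in WT.

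The tested genes whose pattern over the 6 libraries was most like that of Itga4, by Euclidean distance of centred log2(CPM + 1), were Ehd3 (distance 0.285), Myo1f (0.355) and Ly6c2 (0.365). Ehd3, which encodes an ATPase of endocytic recycling, was at 40.1, 35.4 and 42.00 CPM in Utx KO and 138, 154 and 148 CPM in WT. Myo1f, which encodes a class I myosin, was at 13.1, 12.6 and 14.8 CPM in Utx KO and 45.1, 48.4 and 54.7 CPM in WT. Ly6c2, which encodes a GPI-anchored surface protein, was at 110.0, 94.2 and 109.9 CPM in Utx KO and 434, 470.0 and 510.5 CPM in WT, and 23.3% of the pieces of its 3' end occur in transcripts of other genes. Each was lower in all Utx KO libraries than in any WT library, which follows from choosing them by likeness to Itga4 in these libraries.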

How the data were processed

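Per the labels' protocols, QuantSeq 3' libraries were made from total RNA. The authors deposited 1 CPM table per library. The submitters' processing notes name GRCm38 and mm10; no source used here gives the aligner, counter, strand setting or filters. The deposited CPM values are whole multiples of the value of 1 read (100% of values above 0, tolerance 0.001 reads).

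The 10590 genes with at least 1 CPM in at least 3 of 6 libraries were tested with limma-trend (limma 3.58.1, R 4.3.3) on log2(CPM + 1), genotype as the only term, two-sided, with Benjamini-Hochberg adjustment over all of them and a threshold of 0.05; 1142 passed. edgeR 4.0.16 (quasi-likelihood, TMM) on the recovered reads called 1106. DESeq2 1.42.0 was run on the tested genes and, as first run, on all genes with a read. Scripts were tested on simulated data. The members, gene lists and tests were chosen with earlier results of these data known, and the promoter motifs and the second form of DESeq2 after values were seen.

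Named are the members, Kdm6a, up to 6 called genes per list with the lowest adjusted p, integrin chains averaging at least 5 CPM in a group, Icam1, Icam2, Tln1, Fermt3, Rap1b, Apbb1ip and Rasgrp2, and the 3 genes most like Itga4; 1 further gene under this rule is not reported here. Absent markers and Rasgrp1, Mettl7b, Cerkl and Gm42793 were named after their values or overlaps were seen. Coordinates and overlaps are from GENCODE M21 (GRCm38). Of 58 named genes, 17 share exon sequence with a gene on the opposite strand and 1 (Spp1) on the same strand, and their reads cannot be separated. At least 20% of the 50-nt pieces of the last 300 nt occur in other genes for Cd8b1 and Ly6c2, and none for the 9 members.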

Additional observations from a re-analysis of the deposited data

How the results depend on the processing

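Itga4, Itgal and Itgb2 kept their direction and their side of the threshold in 18 alternatives: pseudocounts of 0.1 and 0.5, no filter or one at 5 CPM, edgeR with TMM or RLE factors, limma-voom, TMM-scaled CPM, quantile normalization, a replicate block, each library left out, and DESeq2 in both forms. DESeq2 was first run on all genes with a read. It was then limited to the tested genes so that only the test differed from limma, after the first result had been seen, and both are given. On the tested genes DESeq2 called 599 genes (336 lower and 263 higher in Utx KO), and on all genes with a read 551 (310 and 241), against 1142 (583 and 559) with limma. Of the members it called 4 lower and 0 higher on the tested genes, and 3 lower and 0 higher on all genes, so 3 members changed there. At an unadjusted p under 0.05, which is not a call, 1 member (Itgb7) was higher and 5 were lower in both DESeq2 runs. The share of all genes under that unadjusted p was not counted. At the adjusted threshold edgeR called 1 member higher. Of the genes in the lists, integrin chains outside the members included, 25 fell and 11 rose with limma, against 15 and 5 with DESeq2 on the tested genes and 14 and 5 on all genes; the cause was not tested.

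Leaving out 1 library gave 754 to 1042 changed genes, the lowest without WT replicate 2, of which 392 to 569 were lower and 362 to 473 higher. In limma it gave 4 to 5 members lower, 0 to 1 higher and 6 to 9 list genes higher. At an unadjusted p under 0.05, which is not a call, Itgb7 was higher and 5 to 6 members were lower each time. The share of all genes under that unadjusted p was not counted for these fits either, so these counts only describe the members. The list genes called higher were fewest without Utx KO replicate 2 (6) and WT replicate 2 (7). Of the selectin ligand enzymes 2 fell in both DESeq2 runs and 3 without WT replicate 1 or 2, against 5. The difference in the log2 ratio of Itgal to Itgb2, Utx KO minus WT, ran from −0.0602 to 0.0295 with 1 library left out.

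The replicate numbers are not said to pair the samples. Deviations of same-numbered libraries correlated at 0.00602, −0.00272 and −0.00963, and those of other-numbered libraries at −0.0217 to 0.0227. These values show no shared deviation but cannot settle whether samples were paired. With the replicate number as a block, 1065 genes changed (550 lower and 515 higher), among them 5 members lower and 1 higher, and 24 list genes fell and 11 rose. The partner ratios have the same difference with the replicate block by construction (−1.70, −2.30, −0.02 and −0.16 in the order given above). Depth limits Itgae and other chains with few reads.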
